A study of Mus musculus with 52 samples.

Results

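The genes described here encode the proteasome and its direct partners. They are the 46 protein-coding genes whose symbol is Psma, Psmb, Psmc, Psmd, Psme, Psmf or Psmg followed by a number, without Psma8, out of 20730 genes in the deposited count table. By role they are 7 alpha and 7 beta subunits of the core particle, 5 immunoproteasome genes (Psmb8, Psmb9, Psmb10, Psme1 and Psme2), 6 ATPases and 11 other subunits of the regulatory cap, 3 cap assembly chaperones, 4 core assembly chaperones, and the activators Psme3 and Psme4 with the inhibitor Psmf1. All 46 passed the filter on low counts and were tested. Psmb11, the thymus subunit, is not analysed here.

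Bulk RNA came from primary mouse osteosarcomas, malignant tumours of bone, of 3 genotypes at Trp53, which encodes the tumour suppressor p53. The p53R245W/fl group (17 libraries) and the p53R172H/fl group (19 libraries) each carried 1 allele with the named missense change and 1 floxed allele, and the p53fl/fl group (16 libraries) carried floxed alleles only. Mouse age, sex, strain and the Cre line that would delete the floxed allele are not given in the labels used here. The study is about how tumours driven by different p53 mutants differ in their transcripts. Levels are given in CPM, read counts scaled to library size. The CPM of Trp53 lay between 22.02 and 60.1 in p53R245W/fl, between 26.0 and 49.2 in p53R172H/fl and between 8.52 and 20.1 in p53fl/fl libraries.

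Total counts per library ran from 21596798 to 67223388, with a median of 51026968.5. The column names carry 6 prefixes, whose meaning the labels do not give, and these were pooled into 3 sets, here A, B and C. Sets B and C have 1 prefix each. Set A pools 4, of which FM (5 libraries) and FNM (3) hold only p53fl/fl and WFM (4) and WFNM (4) only p53R172H/fl, so that in set A prefix and genotype cannot be told apart. Set A had 8 p53R172H/fl and 8 p53fl/fl libraries and 0 of p53R245W/fl. Set B had 6 of each genotype, and set C had 11 p53R245W/fl, 5 p53R172H/fl and 2 p53fl/fl libraries. For each of 18 set B libraries 1 library elsewhere, of the same genotype but another tumour number, stood out as its match. The Spearman correlation of matches was 0.631 to 0.935 over 11159 genes, after set and genotype were fitted out of log2 CPM. The next best library outside set B reached at most 0.512. Nothing in the labels says that matched libraries are the same tumour, but the libraries cannot be taken as 52 independent tumours. Matched libraries were therefore also added up, which left 34 units (11 p53R245W/fl, 13 p53R172H/fl and 10 p53fl/fl). The labels do not say that libraries are separate animals, and p-values over 52 libraries are too small where libraries match. The labelled tissue held its markers: the summed CPM of 10 osteoblast genes had medians of 55991 in p53R245W/fl, 100848 in p53R172H/fl and 81718 in p53fl/fl libraries, and none of the 10 was at 0 in any library. In 5 p53R245W/fl libraries (tumours 408, 494, 1580, 1831 and 1835, which form 3 units) the bone collagen gene Col1a1 lay below 13 on the log2 CPM scale. Library 476 of p53R172H/fl was the shallowest and held the lowest CPM of 20 of the 46 genes.

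The proteasome degrades proteins that carry ubiquitin chains. Its core particle is a barrel of stacked alpha and beta rings whose inner face holds the cutting sites of Psmb5, Psmb6 and Psmb7, and a cap of ATPases and other subunits recognises, unfolds and feeds in the substrate. In cells that see interferon gamma the cutting subunits are replaced in new particles by Psmb8, Psmb9 and Psmb10, and the Psme1 and Psme2 activator can take the place of the cap, which changes the peptides made for MHC class I. Bone tumours contain tumour cells, osteoclasts and immune cells, and in bulk RNA fewer cells of a type and less RNA per cell cannot be told apart.

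Levels were compared between genes per length, as CPM per kilobase of the longest principal coding transcript (RPKM). On this scale Psmb6 had the highest median over all libraries (189.7 RPKM), followed by Psma7 (140.8) and Psmb3 (104.6). The median gene of the beta ring stood at 88.3 RPKM and that of the alpha ring at 48.3. The cap ATPases had a median gene of 47.9 RPKM and the other cap subunits one of 45.1. The assembly chaperones were lower, at 9.57 RPKM for the cap and 10.7 for the core, and the inhibitor Psmf1 was lowest at 5.91. Among the immunoproteasome genes Psme2 (52.1 RPKM) and Psme1 (46.9) stood above Psmb8 (32.3), Psmb10 (21.4) and Psmb9 (9.75). The annotated transcripts of Psma2 and Psma3 are long, so their values of 21.5 and 26.1 RPKM may be too low. Across the 34 units the immunoproteasome genes varied most, with a median standard deviation (SD) of log2 CPM of 0.72 and a range of 0.64 to 0.84. The same median was 0.45 for the alpha ring, 0.43 for the beta ring, 0.39 for the cap ATPases and 0.39 for the other cap subunits.

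Over all libraries 15 of the 46 proteasome genes rose in p53R245W/fl over p53fl/fl tumours, and none fell. A fit that pairs matched libraries and takes library set as a covariate called 0 of them. Genes were called at an adjusted p under 0.05 (edgeR's quasi-likelihood test with Benjamini-Hochberg adjustment over 18882 genes), at which 10% of all genes tested rose and 7.82% fell (17.8% either way). The median log2 fold change was 0.34 for the 46 genes and 0.04 for all genes. No difference between roles was tested. In the core 8 of 14 genes rose (median 0.49), and all 14 values were positive. In the cap 5 of 17 rose (median 0.24), in the core assembly chaperones 2 of 4, and in the immunoproteasome 0 of 5 (median 0.35). Over sums of matched libraries 11 of the 46 rose and 0 fell, while 4.68% of all genes rose and 4.35% fell (9.04% either way). By role these were 7 of 14 in the core, 2 of 17 in the cap, 2 of 4 core assembly chaperones and 0 of 5 immunoproteasome genes.

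In the alpha ring, which gates the barrel, Psma2, Psma3, Psma5, Psma6 and Psma7 rose. Psma5 ran from 52.9 through a median of 85.3 to 109 CPM in p53R245W/fl, and from 32.9 through 52.5 to 85.3 CPM in p53fl/fl libraries. None of the 17 p53R245W/fl libraries was under the p53fl/fl median, though the ranges overlapped. Its log2 fold change was 0.62 (SE 0.12, edgeR adjusted p 0.000549). Psma6 had a lowest, median and highest value of 41.2, 78.7 and 130 CPM in p53R245W/fl, against 31.8, 51.9 and 76.5 CPM in p53fl/fl, a log2 fold change of 0.64 (SE 0.15, edgeR adjusted p 0.00225). The p53fl/fl median was exceeded by 16 of 17 p53R245W/fl libraries, and the ranges overlapped. Psma2 had a log2 fold change of 1.21 (SE 0.27, edgeR adjusted p 0.00165), with 55.0, 92.1 and 734 CPM in p53R245W/fl against 41.2, 56.3 and 92.4 CPM in p53fl/fl. The p53R245W/fl median of Psma2 lay just under the highest p53fl/fl library, and its highest library, tumour 1580, stood far above every other library. Without that tumour the value was 0.74 (edgeR adjusted p 0.00743), below those of Psmg4 and Psmb4, and without the libraries of low Col1a1 it was 0.55 and no longer passed (edgeR adjusted p 0.058). Psma3 and Psma7 had log2 fold changes of 0.51 and 0.60, while Psma4 had the lowest value in the ring (0.36, edgeR adjusted p 0.0858). Over sums of matched libraries Psma3 lost its call (edgeR adjusted p 0.0552).

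In the beta ring, which carries the cutting sites, Psmb1, Psmb3 and Psmb4 rose. Psmb4 had 59.2, 178 and 254 CPM (lowest, median and highest) in p53R245W/fl, and 43.1, 70.9 and 202 CPM in p53fl/fl libraries. Most p53R245W/fl libraries were high, 15 of 17 above the p53fl/fl median, but the ranges overlapped widely. Its log2 fold change was 0.90 (SE 0.23, edgeR adjusted p 0.00507). The values of Psmb3 and Psmb1 were 0.65 and 0.48. The cutting subunits themselves did not pass the threshold: Psmb5 (chymotrypsin-like) had 0.46 with an edgeR adjusted p of 0.0811, Psmb6 (caspase-like) 0.31 with 0.177, and Psmb7 (trypsin-like) 0.33 with 0.0668.

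In the cap Psmc4, an ATPase, and Psmd2, Psmd6, Psmd8 and Psmd14 rose. Psmd8, a lid subunit, had 83.5, 149.6 and 274 CPM in p53R245W/fl, against 77.3, 93.3 and 138 CPM in p53fl/fl, with a log2 fold change of 0.65 (SE 0.15, edgeR adjusted p 0.00281). The highest p53fl/fl library lay below the p53R245W/fl median. The other values were 0.59 for Psmd6, 0.42 for Psmc4, 0.40 for Psmd2, a scaffold of the base, and 0.33 for Psmd14, the enzyme that removes ubiquitin from substrates. Over sums of matched libraries Psmc4, Psmd2 and Psmd14 lost the call (edgeR adjusted p 0.1225, 0.0832 and 0.163). Psmd11 had the lowest value of the cap (0.09) and Psmc6 the lowest of the ATPases (0.14). Among core assembly chaperones Psmg4 rose by 1.03 (SE 0.24, edgeR adjusted p 0.00225), with 3.65, 8.81 and 21.7 CPM in p53R245W/fl against 2.48, 4.18 and 10.6 CPM in p53fl/fl. Psmg3, with which Psmg4 forms a pair, had 0.28. In the other chaperone pair Psmg2 rose by 0.55 and Psmg1 had -0.03. The cap chaperones had 0.18 (Psmd5) to 0.38 (Psmd10), and the activator Psme3 had the lowest value of all 46, -0.07.

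The number of calls differed with how matched libraries and library sets were treated. With set alone as a covariate 6 of the 46 were called, with 3.59% of all genes called higher. Set A held 0 p53R245W/fl libraries, so set and genotype cannot be fully told apart. In a paired fit (limma voom with set as a covariate and a correlation of 0.857 between matched libraries) 0 of the 46 were called and 3 had an unadjusted p under 0.05, while 0.0106% of all genes were called higher and 0.0053% lower (0.0159% either way). The median of the 46 was 0.20 in that fit, with 45 of 46 values positive. Within set B the median was 0.31 (0 called, 7 at an unadjusted p under 0.05, with 0.022% of all genes called higher). Within set C, which holds only 2 p53fl/fl libraries, it was 0.01 (0 called, 1 at an unadjusted p under 0.05, with 0% of all genes called). In set C genotype and the label in the column names nearly coincide in this comparison. The share of counts at loci annotated as TEC (awaiting experimental evidence) or sense intronic moved with the genotypes, and its median was 0.152% in p53R245W/fl, 0.304% in p53R172H/fl and 0.326% in p53fl/fl libraries. It moved with the sets too: the p53fl/fl median was 0.386% in set A, 0.233% in set B and 0.153% in set C. Within set B it was 0.122% in p53R245W/fl against 0.233% in p53fl/fl, and within set C 0.184% in p53R245W/fl against 0.153% in p53fl/fl. With that share as a covariate 0 of the 46 were called (8 at an unadjusted p under 0.05, with 4.33% of all genes called higher) and the median was 0.11. Over sums without the units of low Col1a1 3 were called, with 2.01% of all genes called higher, and the median was 0.28. Markers of keratinocytes and epithelium moved with this comparison, 2 of 7 tested higher, with summed CPM of 3.599 to 2246 (median 7.92) in p53R245W/fl and 4.255 to 68.6 (median 9.03) in p53fl/fl libraries. The highest was tumour 1580, where Cldn1 alone had 2243 CPM. Their part in the result was not tested.

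**Figure D1:**
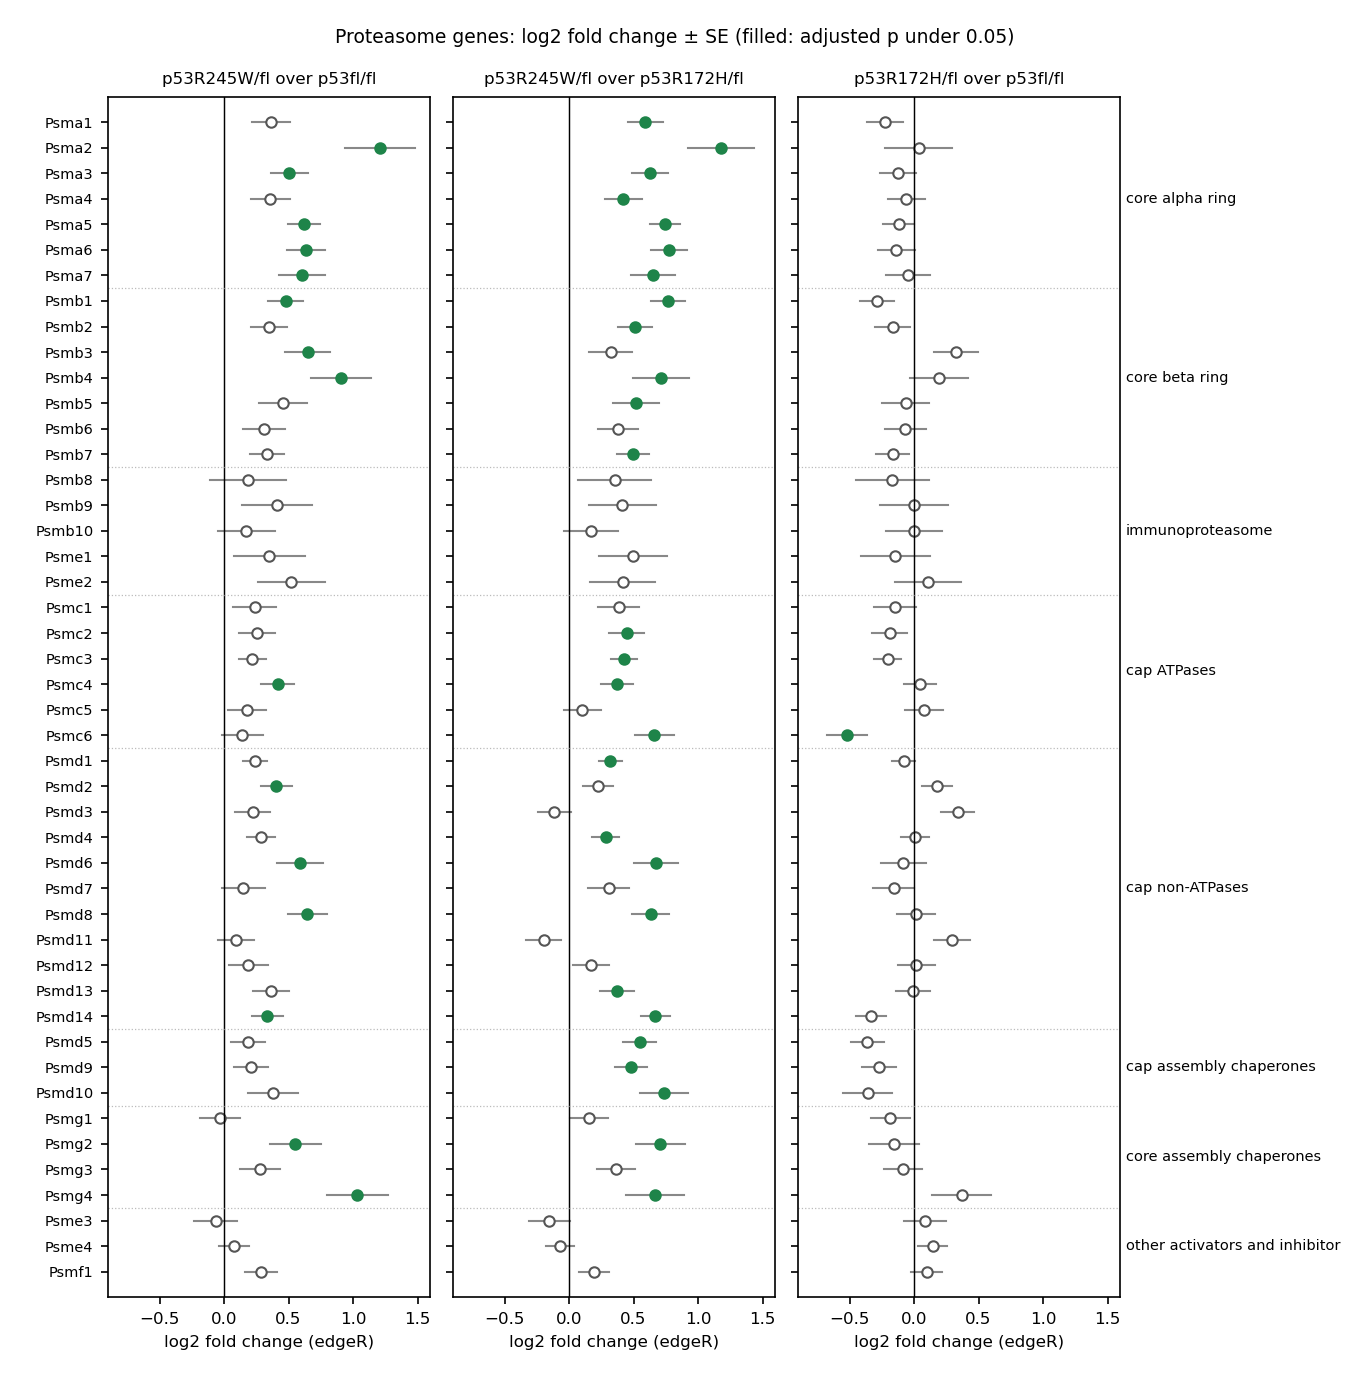
Log2 fold change (x axis, points, with bars of 1 SE on each side) of each of the 46 proteasome genes (y axis, grouped by role) in 3 comparisons. Filled points passed an adjusted p of 0.05 by edgeR over 52 libraries; 15, 27 and 1 of 46 genes did, from the left panel to the right.

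In p53R245W/fl over p53R172H/fl 27 of the 46 genes rose and 0 fell over all libraries, where 18.2% of all genes tested rose and 12.7% fell (30.9% either way). The median of the 46 was 0.42 and that of all genes 0.07. The core rose in 12 of 14 genes (median 0.61), with all 7 alpha subunits called, the cap in 10 of 17 (median 0.37), the cap assembly chaperones in 3 of 3, the core assembly chaperones in 2 of 4 and the immunoproteasome in 0 of 5 (median 0.41). Over sums of matched libraries 17 rose and 0 fell, while 8.8% of all genes rose and 6.41% fell (15.2% either way). By role these were 9 of 14 in the core, 5 of 17 in the cap, 2 of 3 cap and 1 of 4 core assembly chaperones. The comparison shares its p53R245W/fl libraries with the one against p53fl/fl. Of the 46 genes 13 were called in both, and Psmb3 and Psmd2 were called against p53fl/fl but not here, a difference that was not tested.

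Psma5 had the smallest p-value. It had 52.9, 85.3 and 109 CPM (lowest, median and highest) in p53R245W/fl against 26.0, 47.1 and 71.9 CPM in p53R172H/fl, and its log2 fold change was 0.74 (SE 0.12, edgeR adjusted p 1.4e-05). Psmb1 had 113, 177 and 338 CPM in p53R245W/fl against 46.99, 109.5 and 162.5 CPM in p53R172H/fl, a log2 fold change of 0.77 (SE 0.13, edgeR adjusted p 3.9e-05). All 17 p53R245W/fl libraries of both genes lay above the p53R172H/fl median, and the ranges overlapped. Psmd14 had 59.8, 90.8 and 148 CPM in p53R245W/fl against 31.2, 56.6 and 84.1 CPM in p53R172H/fl, a log2 fold change of 0.67 (SE 0.11, edgeR adjusted p 3.7e-05). It was also the proteasome gene with the smallest p in the paired fit, where it had 0.47 and an adjusted p of 0.0689, with an unadjusted p of 0.00195. All 17 p53R245W/fl libraries stood above the p53R172H/fl median of Psmd14.

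Psma6 had a log2 fold change of 0.78 (edgeR adjusted p 6.9e-05) and Psma3 one of 0.63. Psma2 had 1.18, which was 0.69 without tumour 1580 (edgeR adjusted p 0.00449) and 0.51 without the libraries of low Col1a1 (edgeR adjusted p 0.0467). Over sums without the units of low Col1a1 Psma2 had 0.34 and did not pass (edgeR adjusted p 0.386). In the cap, Psmc3 had 0.42, Psmc6 0.66, Psmd8 0.63 and Psmd6 0.67, the largest of the non-ATPase subunits. The chaperones that build the ATPase ring all rose, Psmd10 by 0.74, Psmd5 by 0.55 and Psmd9 by 0.48. Psmd5 had 38.8, 55.4 and 90.6 CPM in p53R245W/fl against 17.6, 37.7 and 63.0 CPM in p53R172H/fl. Its 17 p53R245W/fl libraries all stood above the p53R172H/fl median. Psmg2 had 0.71 and Psmg4 0.66 on the core side, and Psmg4 lost the call over sums (edgeR adjusted p 0.0624). Among the cutting subunits Psmb5 (0.52, edgeR adjusted p 0.0227) and Psmb7 (0.50, edgeR adjusted p 0.00213) rose, and Psmb6 had 0.38 with an adjusted p of 0.0543. Over sums Psmb5 lost the call (edgeR adjusted p 0.086). Psmd11 (-0.20) and Psmd3 (-0.11) had the lowest values of the cap, Psme3 (-0.15) the lowest of the activators, and none of these 3 passed the threshold.

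Here too the paired fit called 0 of the 46 (10 at an unadjusted p under 0.05), with a median of 0.20 and 38 positive values, while 0.62% of all genes were called higher and 0.932% lower (1.55% either way). Within set B 6 were called with a median of 0.61, where 1.87% of all genes were called higher. Within set C 0 were called (14 at an unadjusted p under 0.05, with 0% of all genes called higher) with a median of 0.39. There the label in the column names nearly separates these groups too. With this share of TEC and sense intronic counts added to the model 4 were called, where 6.67% of all genes were called higher, and the median was 0.17. Over sums without the units of low Col1a1 4 were called, where 2.83% of all genes were called higher, and the median was 0.31. Markers of muscle moved with this comparison, 4 of 10 lower in p53R245W/fl, with a summed level of 32.3 to 3551 CPM (median 519) in p53R245W/fl and 94.4 to 14559 CPM (median 1434) in p53R172H/fl, and markers of keratinocytes and epithelium did too, 4 of 7 tested higher. The summed epithelial level was 3.599 to 2246 CPM (median 7.92) in p53R245W/fl and 1.97 to 59.5 CPM (median 7.13) in p53R172H/fl. Their part in the result was not tested.

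**Figure D2:**
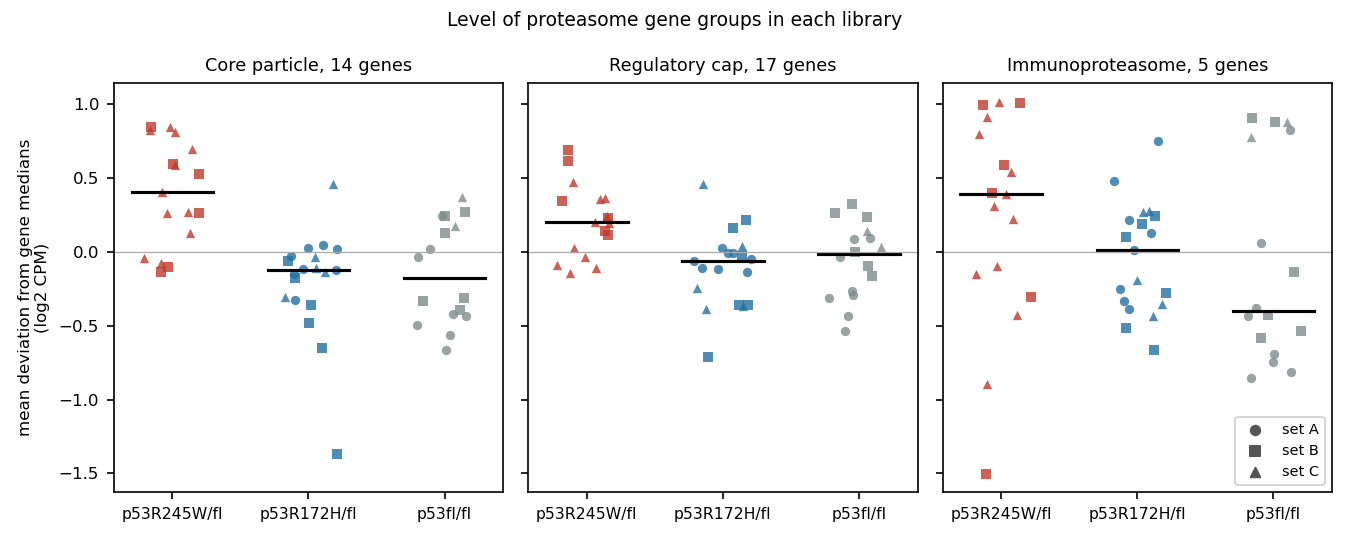
Mean deviation of log2 CPM from each gene's median over all libraries (y axis) for the core, cap and immunoproteasome genes in each library, by genotype (x axis), with library set as the marker and group medians as bars. The core medians are 0.40 in p53R245W/fl, -0.12 in p53R172H/fl and -0.18 in p53fl/fl libraries, and library 476 lies at -1.37.

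Between p53R172H/fl and p53fl/fl tumours few proteasome genes differed. Of the 46 genes 1 fell and 0 rose, where 2.29% of all genes fell and 1.46% rose (3.75% either way). At an unadjusted p under 0.05 there were 8 of the 46. The gene that fell was Psmc6, an ATPase of the cap, with 40.1, 77.1 and 153 CPM in p53R172H/fl against 85.1, 109 and 180 CPM in p53fl/fl. In 17 of 19 p53R172H/fl libraries it lay below the p53fl/fl median. Its log2 fold change was -0.52 (SE 0.15, edgeR adjusted p 0.0427), and without library 476 it no longer passed. Psmc6 was not called over sums (-0.49, adjusted p 0.196) or in the paired fit (-0.48, limma adjusted p 0.441). Over sums 0 of the 46 were called (4 at an unadjusted p under 0.05), with 0.071% of all genes higher and 0.188% lower (0.259% either way), and the paired fit called 0. The median of the 46 was -0.07 (all genes -0.02), with 0.15 within set A, -0.32 within set B and -0.31 within set C, so that its direction differed between sets. The highest values were those of Psmg4 (0.37), Psmd3 (0.34), Psmb3 (0.33) and Psmd11 (0.29), and the lowest after Psmc6 those of Psmd5 (-0.36), Psmd10 (-0.36) and Psmd14 (-0.34). The immunoproteasome genes had -0.17 to 0.11. Markers of skeletal muscle were higher in 7 of 10 genes, with summed CPM of 94.4 to 14559 (median 1434) in p53R172H/fl against 18.2 to 2618 (median 195) in p53fl/fl libraries. Their part in the result was not tested.

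The immunoproteasome genes did not pass the threshold in any comparison, and their libraries spread widely within each genotype. The CPM of Psmb8, which replaces Psmb5, was 16.9, 87.5 and 137 (lowest, median and highest) in p53R245W/fl, 21.2, 53.4 and 112 in p53R172H/fl and 21.5, 39.8 and 169 in p53fl/fl libraries. The p53fl/fl group had the lowest median and the highest library. The CPM of Psmb9, which replaces Psmb6, was 1.71, 17.1 and 27.3 in p53R245W/fl, 4.28, 11.4 and 27.6 in p53R172H/fl and 4.91, 9.003 and 27 in p53fl/fl. All 3 groups reached almost the same highest level. Its log2 fold changes were 0.41 (SE 0.27) for p53R245W/fl over p53fl/fl and 0.41 (SE 0.26) over p53R172H/fl. Psmb10, which replaces Psmb7, had median CPM of 31.3 in p53R245W/fl, 28.3 in p53R172H/fl and 23.8 in p53fl/fl, and its lowest library, in p53R245W/fl, held 5.90. The activator subunit Psme1 had median CPM of 54.0 in p53R245W/fl, 44.1 in p53R172H/fl and 63.7 in p53fl/fl. For its partner Psme2 the medians were 56.8 in p53R245W/fl, 49.95 in p53R172H/fl and 41.03 in p53fl/fl. Psme2 had the largest log2 fold change over p53fl/fl (0.52, SE 0.26, edgeR adjusted p 0.162) and Psme1 the largest over p53R172H/fl (0.50, SE 0.26, edgeR adjusted p 0.144). Tumour 1580 held the highest level of both. Without it Psme2 had 0.26 over p53fl/fl and 0.13 over p53R172H/fl, where it had 0.41 with all libraries. Psme1 then had 0.17 over p53fl/fl, against 0.35 with all libraries, and 0.30 over p53R172H/fl. Psmb10 had 0.17 over p53R172H/fl and 0.10 without that tumour.

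Both ends of the range were reached by a few tumours. The matched libraries 408 and 1835 of p53R245W/fl, both of low Col1a1, had the lowest immunoproteasome scores of their sets, -1.50 and -0.90 in mean log2 deviation from the gene medians. In the summed unit of these libraries Psmb9 and Psmb10 deviated by -2.04 and -2.06 log2 units from the middle of all units. Their core scores were -0.10 in tumour 408 and 0.81 in tumour 1835, near or above the gene medians. At the high end, with scores above 0.8, stood the p53R245W/fl libraries 1580 (1.02), 431 (1.01), 494 (0.997) and 1831 (0.91, the match of 494) and the p53fl/fl libraries 459 (0.91), 327 (0.88), its match 6019 (0.88) and 1979 (0.82).

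**Figure D3:**
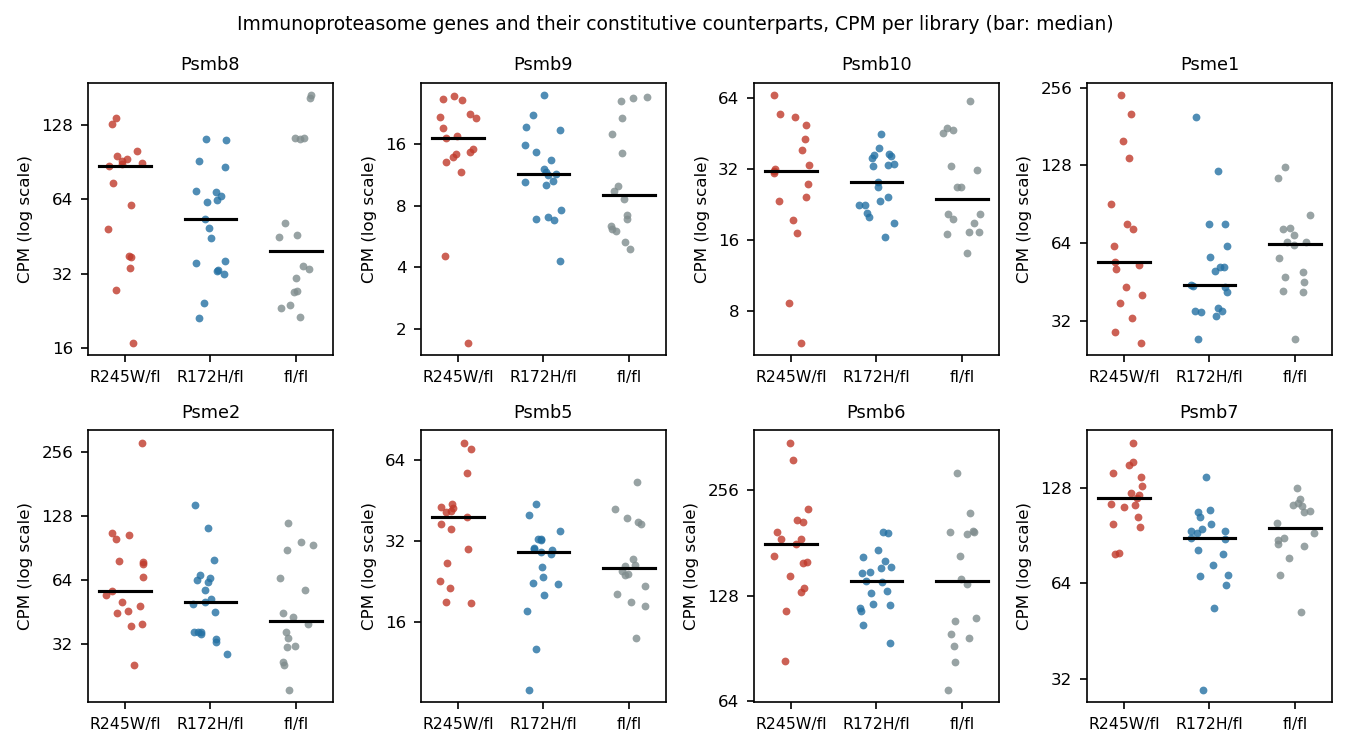
CPM per library (y axis, log scale) of the 5 immunoproteasome genes and of Psmb5, Psmb6 and Psmb7, the constitutive counterparts, by genotype (x axis), with group medians as bars. The groups overlap in each gene, and tumour 408 of p53R245W/fl has the lowest values of Psmb9 (1.71) and Psmb10 (5.90).

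The exchange of cutting subunits was described by the ratio of the immune to the constitutive gene, both per length. Psmb8 over Psmb5 had a median of 1.16 in p53R245W/fl, 1.15 in p53R172H/fl and 1.04 in p53fl/fl libraries, and was above 1 in 31 of 52 libraries. Its range was wide, 0.206 in tumour 1835 to 3.78 in tumour 424. Psmb10 over Psmb7 had medians of 0.1995 in p53R245W/fl, 0.328 in p53R172H/fl and 0.226 in p53fl/fl. Psmb9 over Psmb6 had medians of 0.0555 in p53R245W/fl, 0.0460 in p53R172H/fl and 0.0465 in p53fl/fl. Neither was above 1 in any library. The ratio of Psmb9 over Psmb6 differed by set: in all 18 matched pairs the set B library was the lower, by a median of 0.98 log2 units. For Psmb8 over Psmb5 the set B library was higher in 14 of 18 pairs, with a median difference of 0.30 log2 units. The sets hold unequal numbers of each genotype, so these medians were not compared by a test.

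The promoters shown are those, among the immunoproteasome genes and their constitutive counterparts, in which at least 1 of the motifs below was found. Those of Psmb10 and Psme2 held none of them, and no promoter sequence was listed for Psmb7. The promoters run from 250 bases before to 50 bases after the RefSeq start (GRCm38.p6). Capitals mark the letters of 1 motif, searched on both strands: TTCNNNGAA (a gamma-activated site) in Psmb8, CCAAT in Psmb9 (there as its reverse complement), the interferon-stimulated response element (GAAA, any 2 bases, GAAA) in Psme1 (reverse complement), and TGACNNNGC (an antioxidant response element) in Psmb5 and Psmb6.
Psmb8, GRCm38.p6 chr17:34197945-34198244, plus strand: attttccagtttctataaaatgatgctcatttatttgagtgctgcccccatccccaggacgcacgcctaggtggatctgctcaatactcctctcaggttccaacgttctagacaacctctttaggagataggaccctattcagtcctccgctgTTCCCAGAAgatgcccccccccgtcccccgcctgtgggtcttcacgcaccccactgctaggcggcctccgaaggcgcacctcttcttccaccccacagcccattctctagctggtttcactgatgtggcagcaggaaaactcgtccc
Psmb9, GRCm38.p6 chr17:34187281-34187580, minus strand: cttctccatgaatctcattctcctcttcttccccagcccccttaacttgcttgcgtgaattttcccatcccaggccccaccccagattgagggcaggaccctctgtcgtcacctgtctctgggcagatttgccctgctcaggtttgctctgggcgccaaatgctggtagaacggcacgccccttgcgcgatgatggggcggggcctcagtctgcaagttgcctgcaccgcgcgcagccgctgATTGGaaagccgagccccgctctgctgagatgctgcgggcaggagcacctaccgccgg
Psme1, GRCm38.p6 chr14:55578244-55578543, plus strand: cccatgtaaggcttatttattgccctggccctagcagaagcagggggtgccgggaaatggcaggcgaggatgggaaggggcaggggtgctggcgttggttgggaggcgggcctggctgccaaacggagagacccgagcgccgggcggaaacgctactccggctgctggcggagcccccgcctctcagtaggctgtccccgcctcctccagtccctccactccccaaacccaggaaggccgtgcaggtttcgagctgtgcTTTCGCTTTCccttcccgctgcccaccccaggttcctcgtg
Psmb5, GRCm38.p6 chr14:54617946-54618245, minus strand: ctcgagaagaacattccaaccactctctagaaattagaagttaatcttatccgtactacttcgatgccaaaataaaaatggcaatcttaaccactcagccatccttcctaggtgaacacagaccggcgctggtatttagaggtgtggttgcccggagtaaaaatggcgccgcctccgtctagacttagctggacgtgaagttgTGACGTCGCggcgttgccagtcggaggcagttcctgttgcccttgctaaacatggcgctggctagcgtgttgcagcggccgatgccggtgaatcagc
Psmb6, GRCm38.p6 chr11:70525107-70525406, plus strand: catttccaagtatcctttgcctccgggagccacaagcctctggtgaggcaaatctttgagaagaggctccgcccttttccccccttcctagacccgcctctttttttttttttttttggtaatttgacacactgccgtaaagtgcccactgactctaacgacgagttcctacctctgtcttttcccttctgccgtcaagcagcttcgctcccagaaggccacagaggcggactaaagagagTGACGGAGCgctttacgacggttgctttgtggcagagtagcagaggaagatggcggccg
These letters are common. TTCNNNGAA occurs in 8.3% of 32851 promoters of this length, CCAAT in 37.4%, the interferon element in 3.44% and TGACNNNGC in 12.4%. Of the 39 proteasome genes with a promoter sequence, 3 held TTCNNNGAA, 13 CCAAT, 5 the interferon element and 6 TGACNNNGC. The matches begin 97 bases before the start in Psmb8, 8 before it in Psmb9, 47 in Psmb5 and 9 in Psmb6, and after the start in Psme1. They are runs of letters, not bound sites.

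Pairs of these genes varied together to unequal degrees across the 34 units. Psmb8 and Psmb9, neighbours on chromosome 17, had a Pearson r of 0.88 and a Spearman rho of 0.89 (permutation p 1e-05 for both, the smallest that 100000 resamples give, and 2.67e-05 after Benjamini-Hochberg adjustment over both coefficients of 8 relations). Without the 2 units farthest from the Psmb8 median r was 0.89, and within sets A, B and C it was 0.95, 0.90 and 0.78. Psmb9 and Tap1, the peptide transporter gene beside it, had r 0.84 and rho 0.86 (permutation p 1e-05, adjusted 2.67e-05). Their exons share 212 bases on opposite strands, and the sources used here do not say whether counting used the strand. Psme1 and Psme2 had r 0.82 and rho 0.67 (permutation p 1e-05 and 3e-05), with r of 0.68 without 2 units. Psmb9 was also correlated with Ptprc, the shared leukocyte marker (r 0.63, rho 0.53, permutation p 3e-05 and 0.00149, adjusted 5.33e-05 and 0.00238), and r was 0.44 without the 2 farthest units. The part of immune cells in these levels was not tested.

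No such relation passed the threshold between immune and constitutive partners. Psmb8 and Psmb5 had r 0.17 (permutation p 0.344), Psmb9 and Psmb6 r 0.25 (permutation p 0.162) and Psmb10 and Psmb7 r 0.26 (permutation p 0.139), with rho of 0.24, 0.24 and 0.32 and adjusted p of 0.0972 to 0.344. Without the 2 farthest units r was 0.14, 0.43 and 0.38 for these pairs. Within sets A, B and C it was 0.51, 0.15 and -0.14 for Psmb8 and Psmb5, 0.38, 0.38 and -0.23 for Psmb9 and Psmb6, and 0.30, 0.32 and 0.11 for Psmb10 and Psmb7, so that the first and second of these pairs differed in direction between sets. Within the core the 91 gene pairs had a median rho of 0.62 and within the cap the 136 pairs one of 0.44. Core and immunoproteasome genes had 0.31 over 70 pairs. All these points share their library and depth.

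Pairs on 1 chromosome had a higher median correlation than pairs on different chromosomes, as a description without a test. The 74 same-chromosome pairs of the 46 genes had a median rho of 0.62 and the 961 other pairs one of 0.40. After removal of genotype means the medians were 0.60 and 0.34. Of the 10 highest pairs 5 lay on 1 chromosome, and of the 20 highest 11. The chromosomes were not alike. Of the 74 pairs 28 lay on chromosome 11 and 15 on chromosome 2 (median 0.63). The median was 0.42 on chromosome 14 (10 pairs) and 0.39 on chromosome 17 (3 pairs). The 1 pair on chromosome 16 had 0.35 and the 1 pair on chromosome 8 had -0.11. Psma3 and Psma6, both alpha subunits on chromosome 12, had 0.92, and the 3 pairs that they form with each other and with Psmc1, a cap ATPase there, ran from 0.75 upwards. On chromosome 11, which also carries Trp53, Psmc5 and Psmd12 had 0.88, Psmb3 and Psmc5 0.81, and the 28 pairs of its 8 genes a median of 0.66. These 8 genes (Psmb3, Psmb6, Psmc5, Psmd3, Psmd11, Psmd12, Psme3 and Psme4) had a median log2 fold change of 0.18 in p53R245W/fl over p53fl/fl, positive in 7 of 8, of 0.12 in p53R172H/fl over p53fl/fl, positive in 7 of 8, and of 0.02 in p53R245W/fl over p53R172H/fl, positive in 4 of 8. The pattern by chromosome was noticed in these data, and pairs share genes and libraries.

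**Figure D4:**
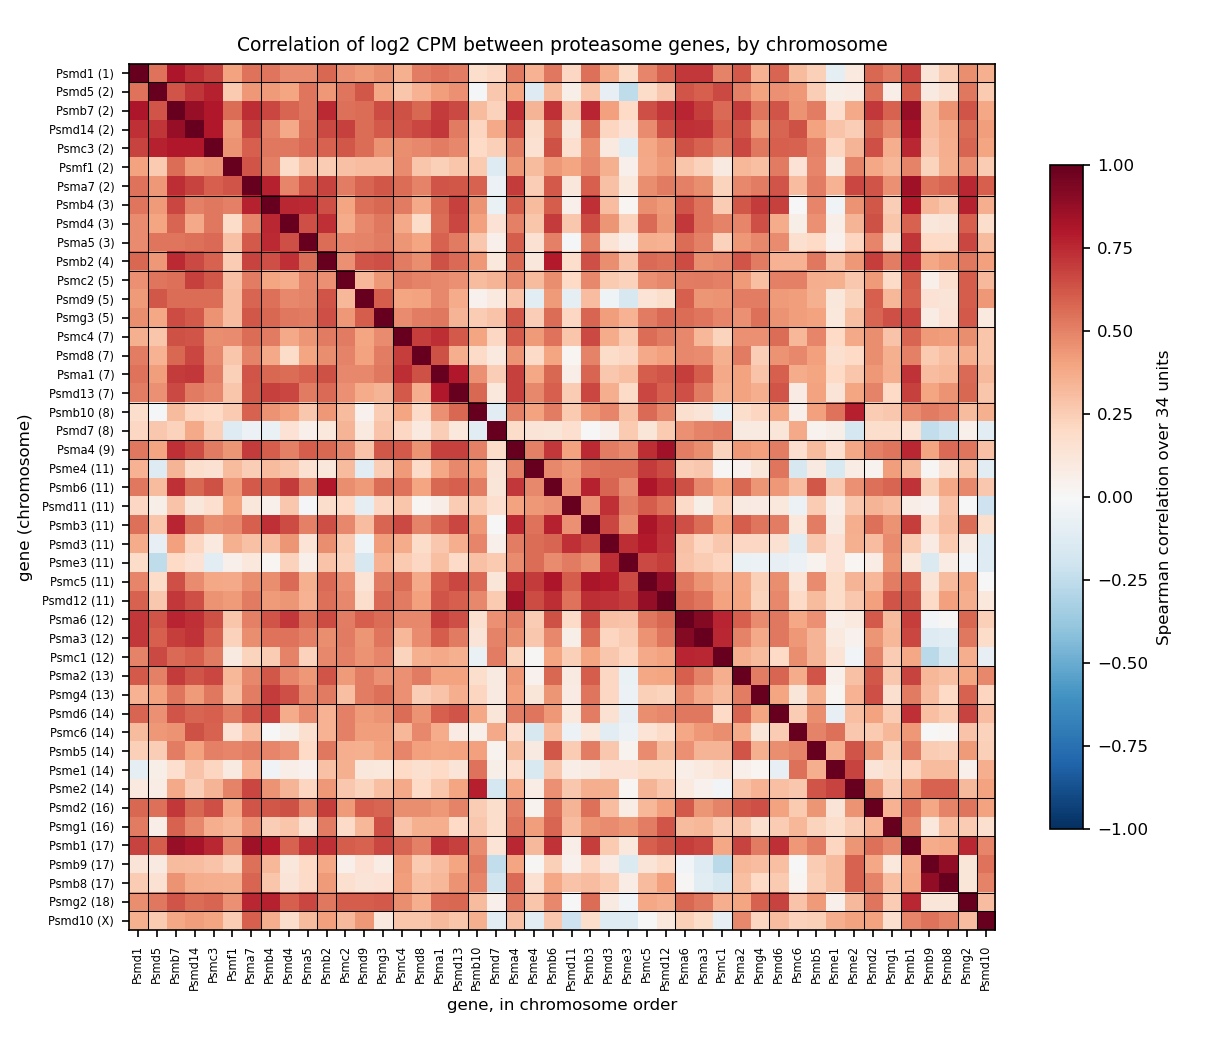
Spearman correlation of log2 CPM over 34 units (colour, -1 to 1) between the 46 proteasome genes, both axes in chromosome order with lines between chromosomes. Blocks of high values lie along the diagonal for some chromosomes, as for chromosome 11 (median 0.66 of 28 pairs) and chromosome 12 (0.76 of 3 pairs). Others were lower, as chromosome 14 (0.42 of 10 pairs), 17 (0.39 of 3), 16 (0.35 of 1) and 8 (-0.11 of 1).

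Tumour 1580 (p53R245W/fl, low Col1a1, of set C and in no matched pair) held the highest Psma2, Psme1, Psme2 and Psmg2 of all 52 libraries. Psma2, at chromosome 13 (GRCm38), 14613240 to 14674236, had 734 CPM there, 11.7-fold the median of the other libraries. Its neighbour Mrpl32 had 120 CPM, 8.51-fold, and AW209491, which lies within the Psma2 span on the same strand, had 64.0 CPM, 8.95-fold. Both were also highest in this tumour. The nearest other genes before it, Arid4b, Ggps1, Tbce and B3galnt2, over 500 kb before its start, lay between 0.885-fold and 1.06-fold. On chromosome 14 Psme1 (55578123 to 55581529) had 239 CPM and Psme2 282 CPM, 4.61-fold and 5.65-fold, and Emc9 between them 5.93-fold. Genes within 100 kb to either side of the Psme1 start, Psme1, Emc9 and Psme2 aside, ranged from 0.928-fold (Pck2) to 2.76-fold (Dhrs4). Without this tumour 14 of the 46 genes were called over p53fl/fl and 26 over p53R172H/fl, where 8.76% and 16.1% of all genes were called higher. The calls lost were Psmg2 over p53fl/fl (0.48, edgeR adjusted p 0.0846) and Psmb5 over p53R172H/fl (0.44, edgeR adjusted p 0.0568).

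**Figure D5:**
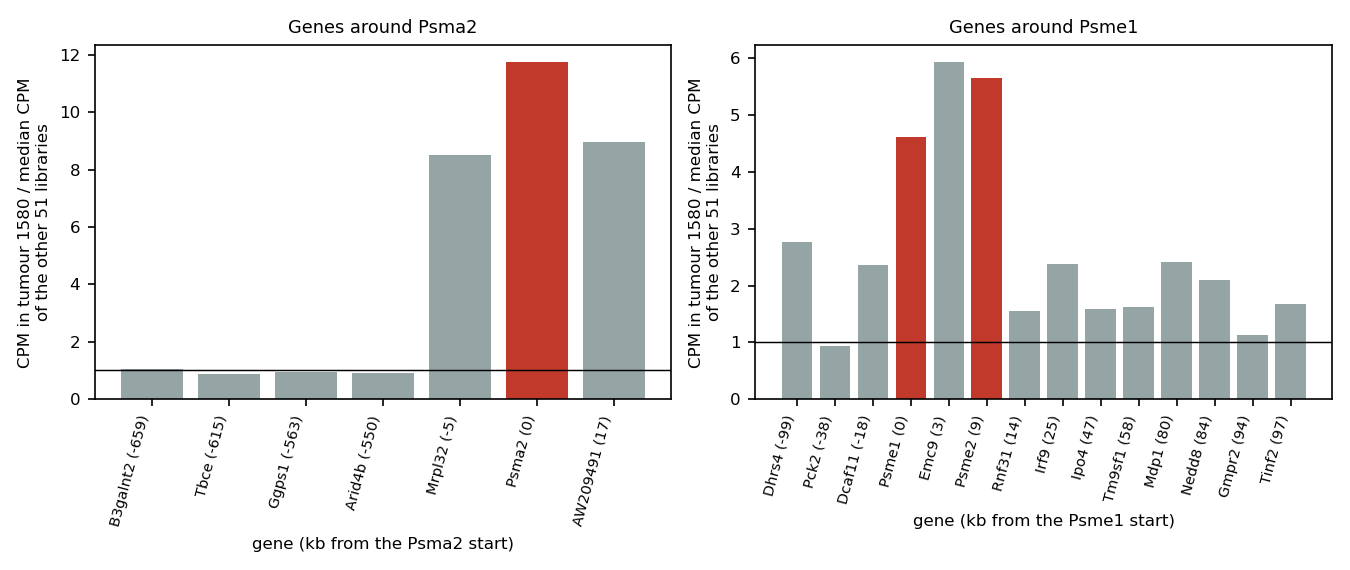
CPM in tumour 1580 divided by the median CPM of the other 51 libraries (y axis, from 0) for genes around Psma2 (left) and Psme1 (right), ordered along the chromosome, with the distance in kb from the named gene's start in parentheses. Proteasome genes are red; Mrpl32, Psma2 and AW209491, which lies within Psma2, stand at 8.51-, 11.7- and 8.95-fold, while the genes over 500 kb before it lie near 1.

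Other genes of the system were read from lists, and no list was tested against the share of all genes. Over 52 libraries 10% of all genes rose and 7.82% fell in p53R245W/fl over p53fl/fl. The shares were 18.2% and 12.7% in p53R245W/fl over p53R172H/fl, and 1.46% and 2.29% in p53R172H/fl over p53fl/fl. The counts of each list below stand beside these shares. Of 8 tested proteasome genes with other names, 2 rose in p53R245W/fl over p53fl/fl and 3 over p53R172H/fl. Akirin2, which imports proteasomes into the nucleus, rose by 0.48 and 0.49 (edgeR adjusted p 0.004 and 0.00101) in these comparisons. The CPM of Pomp, the maturation factor of the core, was 47.6, 66.5 and 103 in p53R245W/fl, 22.7, 46.8 and 63.7 in p53R172H/fl and 43.1, 63 and 115 in p53fl/fl. The p53R172H/fl libraries were low and overlapped both other groups, with log2 fold changes of 0.64 (SE 0.12, edgeR adjusted p 6.9e-05) for p53R245W/fl over p53R172H/fl and -0.55 (SE 0.12, edgeR adjusted p 0.00484) for p53R172H/fl over p53fl/fl. The adjusted p over sums was 0.00449 and 0.119. Ecpas, a proteasome scaffold, rose by 0.29 over p53fl/fl, and Usp14, a deubiquitinase of the cap, by 0.41 over p53R172H/fl. Over sums neither was called (adjusted p 0.272 for Ecpas and 0.104 for Usp14), and Ecpas also lost the call without tumour 1580. Akirin2 was called over sums against p53R172H/fl (adjusted p 0.0316) but not against p53fl/fl (0.0698).

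Nfe2l1, the transcription factor that raises proteasome genes when proteasomes fail, had -0.05 over p53fl/fl and -0.20 over p53R172H/fl in p53R245W/fl and 0.14 in p53R172H/fl over p53fl/fl, none past the threshold. Of the 9 genes in its list, 0 were called in p53R245W/fl over p53fl/fl, where Ddi2 and Vcp had the smallest p (-0.24 and 0.27). Over p53R172H/fl, Ngly1 (0.45), Nfe2l2 (0.35) and Maff (0.76) rose, and Keap1 (-0.31) and Mafg (-0.34) fell. Over sums of matched libraries Ngly1 stayed called (adjusted p 0.0395), and Nfe2l2 (0.124), Maff (0.138), Keap1 (0.0832) and Mafg (0.25) did not. Keap1 also lost the call without tumour 1580, and Keap1 and Mafg without library 476. In p53R172H/fl over p53fl/fl Nfe2l2 fell (-0.50, edgeR adjusted p 0.00909; over sums 0.176).

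Of 12 tested genes of interferon signalling, 1 fell in p53R245W/fl over p53fl/fl (Irf2, a repressor, -0.66) and 3 fell and 1 rose over p53R172H/fl. Those 3 were Stat2 (-0.92), Nlrc5, the activator of MHC class I genes (-1.12), and Irf2 (-0.64), and Jak1 rose (0.32). Over sums Irf2 kept the call in both comparisons (adjusted p 0.0257 and 0.026) and Stat2 in its own (0.0403), and Nlrc5 (0.0712) and Jak1 (0.273) lost it. Socs1 was called only over sums, higher in p53R245W/fl over p53fl/fl (1.03, edgeR adjusted p 0.0352). None of the 12 was called in p53R172H/fl over p53fl/fl, where Stat2 and Socs1 had 0.51 and 0.53. Of 11 genes of MHC class I loading, 0 were called over p53fl/fl (Erap1 and Tapbpl had 0.37 and 0.39). Pdia3 (0.37) and Calr (0.41), chaperones of the loading complex, rose in p53R245W/fl over p53R172H/fl, and Calr fell in p53R172H/fl over p53fl/fl (-0.59). None of these 3 calls held over sums (adjusted p 0.215 for Pdia3, 0.426 and 0.146 for Calr), and without library 476 that of Calr over p53R172H/fl and that of Jak1 were lost. Of 13 ubiquitin and shuttle genes, Rps27a (0.66) and Ubqln1 (0.33) rose and Ubqln4 fell (-0.52) in p53R245W/fl over p53fl/fl. Over p53R172H/fl Ubqln1 (0.40), Ubb (0.63), Rps27a (0.55) and Rad23b (0.42) rose, and 0 of 13 were called in p53R172H/fl over p53fl/fl, where Rad23b had -0.39 and Hspa8 -0.32. Over sums Rps27a (adjusted p 0.0186 and 0.0446), Ubqln4 (0.018) and Ubb (0.0186) stayed called. Ubqln1 (0.301 over p53fl/fl and 0.0972 over p53R172H/fl) and Rad23b (0.258) did not. Bag6 was called only over sums, lower in p53R245W/fl over p53fl/fl (-0.43, edgeR adjusted p 0.025) and over p53R172H/fl (-0.37, edgeR adjusted p 0.0294).

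Markers of immune cells were read because such cells carry the immunoproteasome. Of 12 T and NK cell genes, Trac and Ncr1 rose in p53R245W/fl over p53fl/fl and Trac over p53R172H/fl, and the list had median log2 fold changes of 1.37 and 0.53. Its summed CPM was nevertheless not higher at the median, with 10.5 in p53R245W/fl (3.13 to 74.5), 14.2 in p53R172H/fl (5.15 to 35.4) and 15.4 in p53fl/fl (2.09 to 43.6). Some of these genes were at 0 in some libraries of each group (Klrb1c and Ncr1 in all 3 groups), and none was at 0 in a whole group.

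Of 11 tested macrophage and dendritic cell genes 0 were called in p53R245W/fl over p53fl/fl, and Mrc1 and Cd14 rose over p53R172H/fl. Their summed CPM had medians of 1369 in p53R245W/fl (179 to 6652), 1249 in p53R172H/fl (583 to 2233) and 1569 in p53fl/fl (397 to 3119). The summed CPM of the B and plasma cell genes had medians of 9.83 in p53R245W/fl, 10.3 in p53R172H/fl and 9.09 in p53fl/fl. With these 3 lists as covariates 18 of the 46 proteasome genes were called over p53fl/fl and 25 over p53R172H/fl, with medians of 0.33 and 0.35, where 8.98% and 14.8% of all genes were called higher. Of the 18 genes 14 were among the 15 called without these covariates. Markers of osteoclasts, endothelium and granulocytes had 0 calls in each comparison, and the summed osteoclast level had medians of 6008 CPM in p53R245W/fl, 3074 CPM for p53R172H/fl and 3802 CPM for p53fl/fl libraries.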

How the data were processed

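RNA of flash-frozen primary osteosarcomas was made into stranded mRNA libraries and read as pairs, per the labels. The authors deposited raw read counts per gene; STAR and the build GRCm38 are named in the submitters' processing notes, and no source used here names the counting program, its strand setting or the annotation. The lowest total of a gene was 260 counts. Identifiers were matched, without version, to GENCODE M21 (20668 of 20730). The genes and lists were chosen with earlier results of these data known. edgeR 4.0.16 (R 4.3.3) fitted 52 libraries with 1 coefficient per genotype, TMM library sizes, filterByExpr (minimum count 10) and robust quasi-likelihood tests over 18882 genes. CPM use these library sizes; log2 CPM use a prior count of 2. SE is the log2 fold change over the root of F.

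The paired fit was limma 3.58.1; DESeq2 1.42.0 was an alternative. Tumour numbers never repeat between groups, so pairing comes from the matched libraries, which were found from the counts. Other alternatives were RLE factors, no filter, a minimum count of 50, covariates, fits of 2 groups, within sets, and without set B or low Col1a1. Those without tumour 1580 or library 476, and sums without low Col1a1, were added after seeing the data. The tests were tested on simulated data. Named were the immunoproteasome genes and Psmb5, Psmb6 and Psmb7, called genes (the 12 smallest p, and those called over sums), the extremes of each role, and from each list up to 4 called genes or the 2 smallest p. Maff, genes of correlated pairs, the neighbours of Psma2 and Psme1, and Psma8 were named after their values were seen. Permutation tests of correlations were two-sided with 100000 resamples. Protein sequences were not used here. Promoters are from RefSeq (39 of 46 genes matched). Results for some genes are not reported here.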

Additional observations from a re-analysis of the deposited data

How the results depend on the processing

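Among the alternative values of named genes, 878 kept their direction and side of the threshold, 458 lost the call and 28 changed sign. Of the 15 genes called in p53R245W/fl over p53fl/fl, 6 were left with library set as a covariate, 0 with the TEC and sense intronic share, 0 in the paired fit with the replicate block of matched libraries, 0 within set B, 0 within set C and 3 over sums without low Col1a1. Of the 27 over p53R172H/fl, the counts were 17 over sums, 0 in the paired fit, 4 with the TEC share, 14 without set B, 6 within set B, 0 within set C and 4 over sums without low Col1a1. The 1 called in p53R172H/fl over p53fl/fl was lost (0) under RLE factors, a minimum count of 50, sums (also without low Col1a1) and the paired fit. It was also lost with the TEC share, with immune markers, without set B and within each set. Leaving out tumour 1580 kept it, and leaving out library 476 lost it. These 2 fits kept 14 and 15 of the 15 genes over p53fl/fl, and 26 and 27 of the 27 over p53R172H/fl. The causes were not tested.

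Signs changed in p53R245W/fl over p53fl/fl within set C for Psma7 (-0.186), Psmb8 (-0.991), Psmb9 (-0.539), Psmb10 (-0.263), Psme2 (-0.354), Psmc4 (-0.0725), Psmd2 (-0.0497), Psmd14 (-0.00733), Psmg2 (-0.0858) and Irf2 (0.0899), and within set B for Psmg2 (-0.00578). With the TEC share they changed for Psmb8 (-0.411), Psmb9 (-0.139), Psmb10 (-0.287) and Psme1 (-0.176), in the paired fit for Psmb10 (-0.0285), with immune markers for Psmb10 (-0.00235), without low Col1a1 for Psme1 (-0.0386), and over sums without low Col1a1 for Psme1 (-0.154). In p53R245W/fl over p53R172H/fl the TEC share changed the sign of Psma4 (-0.0473), Psmb8 (-0.602), Psmb9 (-0.322), Psmb10 (-0.367), Psme1 (-0.135), Psme2 (-0.234), Jak1 (-0.149) and Rad23b (-0.0892), and the paired fit that of Psmb10 (-0.067). Set C has 2 p53fl/fl libraries, and in it the p53R245W/fl genotype nearly coincides with a label in the column names. Both limit what it can show.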

Other observations

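Psma8, the alpha subunit of the testis proteasome, is outside the 46 genes and was looked at after its values were seen. Its CPM ran from 0.0267 through a median of 1.045 to 26.7 in p53R245W/fl, from 0.0536 through 12.6 to 27.3 in p53R172H/fl and from 0.0655 through 0.515 to 10.1 in p53fl/fl libraries. The ranges overlapped, but the p53R172H/fl median lay above the highest p53fl/fl library. edgeR gave log2 fold changes of 2.58 (SE 0.76, adjusted p 0.0145) for p53R245W/fl over p53fl/fl and 3.21 (SE 0.77, adjusted p 0.0132) for p53R172H/fl over p53fl/fl, and -0.63 (adjusted p 0.509) for p53R245W/fl over p53R172H/fl. Over sums of matched libraries the adjusted p of the first and second of these was 0.192 and 0.252, and in the paired fit 0.772 and 0.441.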
